A study of Mus musculus with 20 samples.

Results

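The CXC chemokines are a family of small secreted proteins, named for the spacing of their first cysteines, and 9 of their genes were followed here in the mouse abdominal aorta: Cxcl1, Cxcl2, Cxcl5, Cxcl9, Cxcl10, Cxcl12, Cxcl13, Cxcl14 and Cxcl16. The genes were chosen by name, and all 9 were found among the 43422 Ensembl genes listed for every library. RNA was sequenced from the abdominal aortas of 20 mice on a C57BL/6 background (C57Bl/6NCrl in the methods) on day 14 of an infusion from subcutaneous osmotic pumps, with 5 mice in each of 4 groups. WT mice received saline or angiotensin II (Ang II) at 1000 ng/kg per minute, and Plod1-/- mice, which lack lysyl hydroxylase 1 (LH1) in every cell, received saline or the same dose of Ang II. Plod1-/- mice and WT littermates came from crosses of heterozygous parents, and the study's methods state that males were used. The labels give an age of 6 months for all mice, whereas the methods give a younger age at pump implantation. Gene expression was deposited as FPKM, a count of sequenced fragments scaled by transcript length and by library total, so that levels of different genes can be set side by side.

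Chemokines guide leukocytes along gradients by binding G protein-coupled receptors. Cxcl1, Cxcl2 and Cxcl5 bind CXCR2 and draw neutrophils to sites of injury. Cxcl9 and Cxcl10 are induced by interferons and draw activated T cells and NK cells through CXCR3. Cxcl12, Cxcl13 and Cxcl14 are made in many healthy tissues and are called homeostatic: Cxcl12 keeps CXCR4-bearing cells in place and Cxcl13 gathers CXCR5-bearing B cells into follicles. Cxcl16 is anchored in the membrane of macrophages and other cells, takes up oxidized lipoproteins and binds CXCR6. In the injured arterial wall, smooth muscle cells, fibroblasts, endothelial cells and arriving leukocytes can all be sources of these proteins.

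The genes lie in a few groups in the genome (GRCm38, GENCODE annotation, all protein coding). Cxcl5 (ENSMUSG00000029371, chr5:90759360-90761624), Cxcl1 (ENSMUSG00000029380, chr5:90891241-90893115) and Cxcl2 (ENSMUSG00000058427, chr5:90903871-90905938) are on the plus strand of a cluster of 7 CXC ligand genes that spans 146579 bases. Cxcl9 (ENSMUSG00000029417, chr5:92321347-92328079) and Cxcl10 (ENSMUSG00000034855, chr5:92346638-92348889) share a 44139-base cluster on the minus strand with Cxcl11. Cxcl13 (ENSMUSG00000023078, chr5:95956951-95961068, plus strand) lies apart on the same chromosome. Cxcl12 (ENSMUSG00000061353, chr6:117168535-117181367, plus strand), Cxcl14 (ENSMUSG00000021508, chr13:56288643-56296551, minus strand) and Cxcl16 (ENSMUSG00000018920, chr11:70453983-70459984, minus strand) are on 3 other chromosomes.

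The promoters of Cxcl1 and Cxcl2, which draw neutrophils, and of the interferon-induced Cxcl9 and Cxcl10 are shown because the results below separate these classes. Each sequence is the 250 bases before the RefSeq start (GRCm38.p6), written 5′ to 3′ on the strand of the gene, and capitals mark letters that match one of 4 searched motifs: the NF-kappaB consensus, the interferon-stimulated response element GAAANNGAAA, the gamma-activated site TTCNNNGAA and the AP-1 site TGANTCA, each on both strands.
Cxcl1, chr5:90890995-90891244: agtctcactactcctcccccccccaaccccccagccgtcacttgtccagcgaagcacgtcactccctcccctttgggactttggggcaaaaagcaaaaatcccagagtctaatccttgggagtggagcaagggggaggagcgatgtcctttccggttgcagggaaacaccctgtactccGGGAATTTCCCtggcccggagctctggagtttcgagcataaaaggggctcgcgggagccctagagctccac
Cxcl2, chr5:90903649-90903898: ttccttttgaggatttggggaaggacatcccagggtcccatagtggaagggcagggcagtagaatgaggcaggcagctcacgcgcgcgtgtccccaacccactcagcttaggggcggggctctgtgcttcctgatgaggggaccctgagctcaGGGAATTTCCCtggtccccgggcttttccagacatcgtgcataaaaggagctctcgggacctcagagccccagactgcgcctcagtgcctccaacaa
Cxcl9, chr5:92328080-92328329: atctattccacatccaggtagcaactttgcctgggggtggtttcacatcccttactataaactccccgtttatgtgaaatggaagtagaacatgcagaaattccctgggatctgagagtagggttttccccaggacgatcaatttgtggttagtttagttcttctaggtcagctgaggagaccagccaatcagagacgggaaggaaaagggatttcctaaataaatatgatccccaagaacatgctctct
Cxcl10, chr5:92348890-92349139: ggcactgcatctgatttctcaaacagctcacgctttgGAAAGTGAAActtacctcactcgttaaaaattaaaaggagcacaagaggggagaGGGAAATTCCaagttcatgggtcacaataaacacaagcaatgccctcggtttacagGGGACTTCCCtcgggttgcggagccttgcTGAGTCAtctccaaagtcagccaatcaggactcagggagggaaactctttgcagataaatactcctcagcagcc
In the windows of Cxcl1 and Cxcl2 the capitals are the same 11 bases, which match the NF-kappaB consensus on both strands in overlapping positions. Read from left to right, the capitals of Cxcl10 are 1 interferon-stimulated response element, 2 matches to the NF-kappaB consensus and 1 AP-1 site. No letters of the Cxcl9 window matched. Among 32851 RefSeq promoter windows of this length, 3.9% held the NF-kappaB consensus, 2.98% the interferon-stimulated response element, 7.02% the gamma-activated site and 6.75% the AP-1 site. Windows of 7 of the 9 genes were used here (all but Cxcl5 and Cxcl16), and those of Cxcl12 and Cxcl13 held none of the 4 motifs, whereas that of Cxcl14 held 1 interferon-stimulated response element and 1 gamma-activated site. A match in these windows describes letters only and was not tied to binding.

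The libraries matched their genotype labels: Plod1 was listed at 22.8 to 29.7 FPKM in WT and at no more than 0.0415 FPKM in Plod1-/- mice. Acta2 (1901 to 17685 FPKM) and Myh11 (166 to 1522 FPKM) marked all libraries as smooth muscle-rich, although Tagln, another smooth muscle gene, was listed at only 1.46 to 12.2 FPKM. The number of reads per library is unknown, and the relative depth read from the steps between low FPKM values lay between 0.903 and 1.09. Some libraries stood apart. Ang II-treated WT replicate 1 had a summed FPKM of 222 over 12 neutrophil markers and 2352 over 12 macrophage markers, against at most 54.2 and 640 in the other mice of its group. Saline-treated Plod1-/- replicate 3 had 65.4 FPKM of Igtp and 10.2 FPKM of Gbp4, both interferon-gamma-induced GTPases, against at most 5.79 and 0.836 in its group. Ang II-treated Plod1-/- replicate 1 kept 14456 FPKM of Acta2. Xist RNA was present in saline-treated Plod1-/- replicate 5 and Ang II-treated Plod1-/- replicate 1, and without replicate 1 Cxcl5, and against saline also Cxcl2, no longer reached 1 FPKM in 5 mice. Values of each mouse are given in the order of replicates 1 to 5.

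When both genotypes received Ang II, 5 of the 7 members that could be tested had higher expression in Plod1-/- mice (limma on log2(FPKM + 1), adjusted p below 0.05 and a log2 fold change above 1), namely Cxcl1, Cxcl2, Cxcl5, Cxcl14 and Cxcl16, and none had lower expression. Among all 12356 genes tested, 7.45% had higher expression by the same rule. By class, 3 of 3 neutrophil-drawing members, 1 of 3 homeostatic members and the membrane-anchored Cxcl16 were called. The median log2 fold change was 2.36 over the 7 members and 0.117 over all genes tested, and with quantile normalization the median over all genes became -0.044 with 5 members still called. The numbers of all genes with higher and lower expression changed from 920 and 453 to 733 and 632 with that normalization. In 3 of the tested members, Cxcl1, Cxcl2 and Cxcl5, every Ang II-treated Plod1-/- mouse lay above every Ang II-treated WT mouse, and 10.4% of all genes tested showed this. Cxcl9 and Cxcl10 did not reach the filter of 1 FPKM in 5 mice. Cxcl1, Cxcl2 and Cxcl5 reached it because they were high in Ang II-treated Plod1-/- mice, so their part in these counts was fixed by that level.

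**Figure D1:**
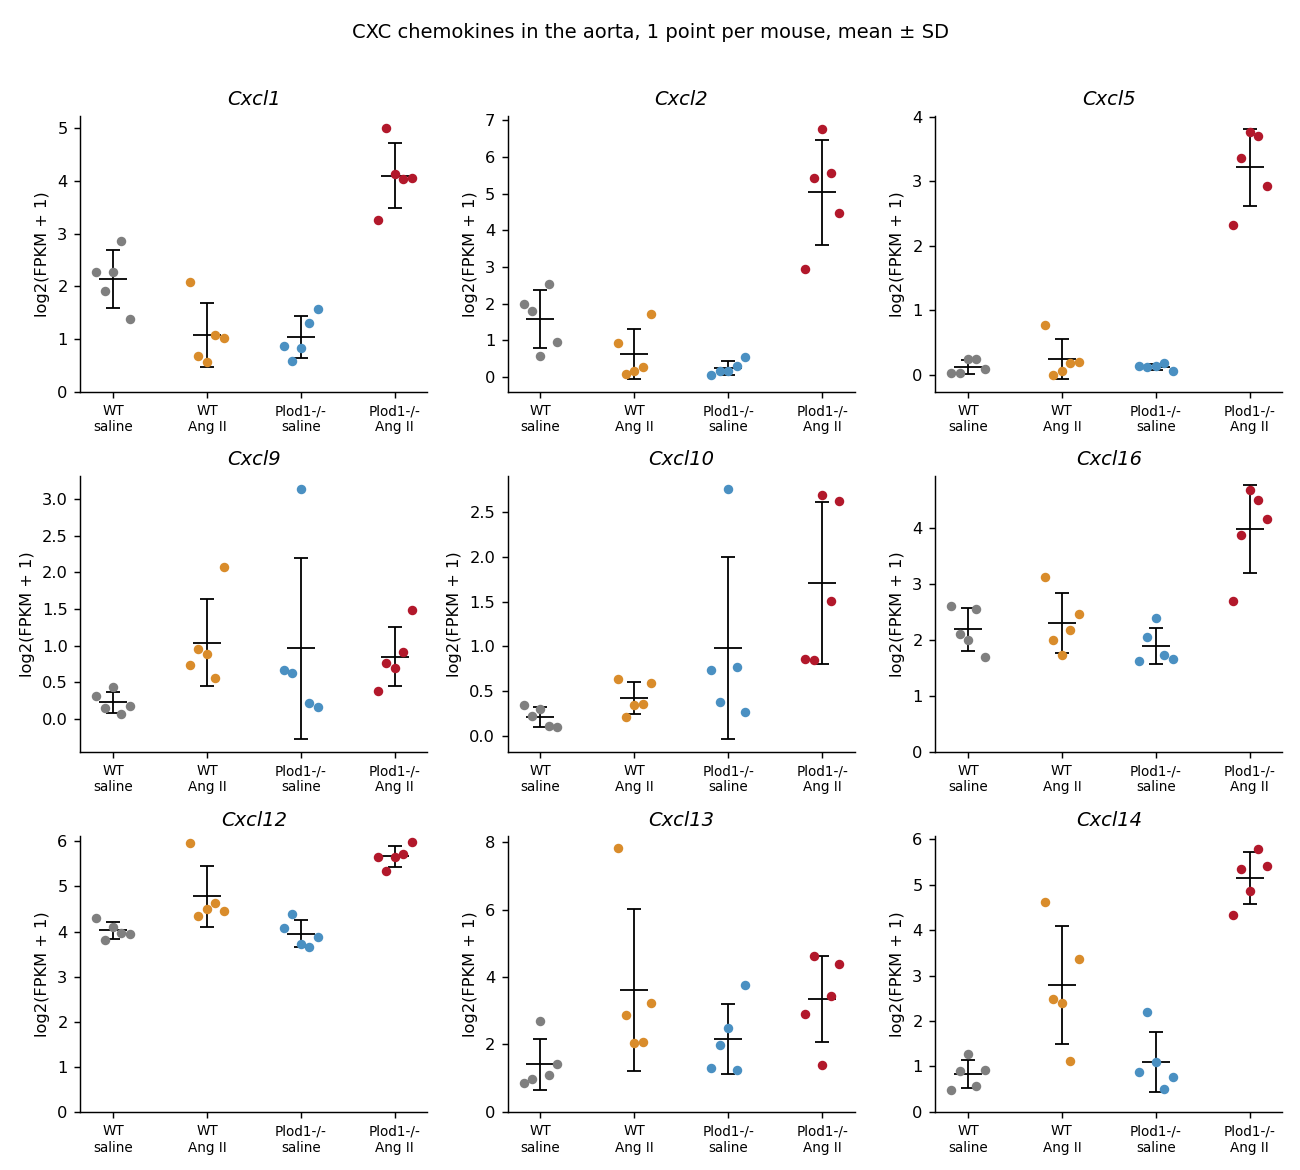
Expression of the 9 CXC chemokines on the log2(FPKM + 1) scale (vertical axis) in the 4 groups, with 1 point per mouse and bars for the mean and SD of 5 mice. All Ang II-treated Plod1-/- mice lie above the other 15 mice for Cxcl1, Cxcl2 and Cxcl5, whereas for Cxcl9 and Cxcl13 they overlap with each other group.

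Cxcl1, a CXCR2 ligand released early in injury, was present in every aorta. Cxcl1 was 3.81, 2.76, 3.83, 6.29 and 1.59 FPKM in saline-treated WT mice and 3.22, 0.586, 0.471, 1.10 and 1.01 FPKM in Ang II-treated WT mice. Cxcl1 in Plod1-/- mice was 0.823, 0.503, 0.772, 1.48 and 1.96 FPKM under saline and 8.59, 31.1, 16.4, 15.3 and 15.7 FPKM under Ang II. The 5 Ang II-treated Plod1-/- mice were above all others, and the remaining groups overlapped, with saline-treated WT mice highest among them. The mean of 17.4 ± 8.26 FPKM (SD, n = 5) for Ang II-treated Plod1-/- mice was 13.6 times that of Ang II-treated WT mice, 1.28 ± 1.12 FPKM (SD, n = 5). The log2 fold change was 3.02 (SE 0.34, limma's adjusted p = 0.000718) on a scale that understates the change of low genes. In bulk tissue, a difference in the number of cells that make a transcript cannot be told apart from a difference in RNA per cell. Against saline-treated mice of their own genotype, the log2 fold change was 3.06 (SE 0.29, limma's adjusted p = 5.14e-05).

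In WT mice Cxcl1 went the other way, with a log2 fold change, Ang II against saline, of -1.06 (SE 0.31, limma's adjusted p = 0.0234). The groups overlapped, and the call was lost in 4 of the 10 fits that left out 1 mouse, whose adjusted p lay between 0.0530 and 0.0617 (without saline-treated replicate 4, or without Ang II-treated replicate 2, 3 or 5). Between the saline-treated genotypes Cxcl1 was lower in Plod1-/- mice, 1.11 ± 0.596 against 3.66 ± 1.74 FPKM (SD, n = 5 each), with a log2 fold change of -1.11 (SE 0.27, limma's adjusted p = 0.0371). That call was lost in 8 of the 10 fits that left out 1 mouse, with adjusted p between 0.0599 and 0.0825 (each of saline-treated WT replicates 1 to 4 and Plod1-/- replicates 1 to 4), and in every one of these fits Cxcl1 remained lower. It was also lost with no filter, with a replicate block and with all 4 groups in one fit (adjusted p of 0.115, 0.0759 and 0.0905 by limma).

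Cxcl2, a CXCR2 ligand made by stimulated macrophages and neutrophils, spread more widely. Cxcl2 was 2.96, 2.50, 0.499, 4.84 and 0.948 FPKM in saline-treated WT mice and 0.908, 0.0686, 0.130, 0.202 and 2.27 FPKM in Ang II-treated WT mice. Cxcl2 in Plod1-/- mice was 0.0509, 0.130, 0.129, 0.237 and 0.466 FPKM under saline and 6.73, 41.6, 108, 46.2 and 21.0 FPKM under Ang II. Again the 5 Ang II-treated Plod1-/- mice were above the other 15, with replicate 1 lowest and replicate 3 highest among them. Their mean of 44.7 ± 38.8 FPKM (SD, n = 5) was 62.4 times the 0.716 ± 0.932 FPKM (SD, n = 5) of Ang II-treated WT mice, which gave a log2 fold change of 4.39 (SE 0.61, limma's adjusted p = 0.00155). The log2 fold change reached 4.77 against saline-treated Plod1-/- mice (SE 0.56, limma's adjusted p = 0.000142). In the 2 comparisons without Ang II-treated Plod1-/- mice, Cxcl2 was below the filter and was compared by exact permutation of the mice, two-sided, whose smallest p with 5 against 5 is 0.00794. All saline-treated Plod1-/- mice lay below all saline-treated WT mice, a difference of -1.32 in mean log2(FPKM + 1) (exact permutation p = 0.00794). Between Ang II- and saline-treated WT mice the groups overlapped and the difference was -0.94 (exact permutation p = 0.0794).

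Cxcl5, a CXCR2 ligand of epithelial and mesenchymal cells, was near 0 outside the Ang II-treated Plod1-/- group. Cxcl5 was 0.0195, 0.0198, 0.178, 0.180 and 0.0631 FPKM in saline-treated WT mice and 0.712, 0, 0.0412, 0.131 and 0.152 FPKM in Ang II-treated WT mice. Cxcl5 in Plod1-/- mice was 0.0942, 0.0904, 0.102, 0.132 and 0.0383 FPKM under saline and 3.98, 9.26, 12.6, 12.01 and 6.59 FPKM under Ang II. Every value of the last group was above every value of the other 3, of which the highest was that of Ang II-treated WT replicate 1. The mean was 8.88 ± 3.63 FPKM (SD, n = 5) against 0.207 ± 0.289 FPKM (SD, n = 5) for Ang II-treated WT mice, with a log2 fold change of 2.97 (SE 0.27, limma's adjusted p = 0.000337). The log2 fold change against saline-treated Plod1-/- mice was 3.09 (SE 0.24, limma's adjusted p = 2.74e-05). In WT mice Ang II and saline differed by 0.12 in mean log2(FPKM + 1) (exact permutation p = 0.619), and the saline-treated genotypes differed by 0.0017 (exact permutation p = 0.952).

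Over the 3 neutrophil-drawing genes together, the summed FPKM was 71.0 ± 44.5 (SD, n = 5) for Ang II-treated Plod1-/- mice, with a range of 19.3 to 137. In Ang II-treated WT mice it was 2.20 ± 1.86 (SD, n = 5), and in saline-treated WT mice 6.10 ± 3.28 (SD, n = 5). The median sums of neutrophil and macrophage markers were also highest in Ang II-treated Plod1-/- mice. From saline to Ang II in WT mice, the median sum went from 5.26 to 13.1 FPKM for neutrophil markers. For macrophage markers it went from 413 to 638 FPKM. The mean, not the median, of the summed neutrophil-drawing genes is given above and was lower under Ang II. The summed FPKM of 12 neutrophil markers was 158 to 728 in Ang II-treated Plod1-/- mice and 7.48 to 222 in Ang II-treated WT mice, and that of 12 macrophage markers was 1179 to 6158 and 434 to 2352. Between these groups, 5 of 6 tested neutrophil markers and 11 of 12 macrophage markers had higher expression (7.45% of all genes tested). Some neutrophil markers, such as Csf3r and Cxcr2, reached the filter only through Ang II-treated Plod1-/- mice, so their part in this count was fixed by that level. Among neutrophil markers below the filter, means were higher in Ang II-treated WT mice for Ngp, Camp, Ltf and Elane, and in Ang II-treated Plod1-/- mice for Ly6g and Mpo. Medians of all these genes were higher in Ang II-treated Plod1-/- mice. These medians were 0.463 against 0.435 FPKM for Ngp and 0.254 against 0.203 FPKM for Camp. For Ltf they were 0.260 against 0.0925 FPKM, and for Elane 0.268 against 0.177 FPKM. The highest WT value of Ngp was 18.4 FPKM. The defining neutrophil marker Ly6g was 0.143 to 0.280 FPKM in Ang II-treated Plod1-/- mice and at most 0.391 FPKM in Ang II-treated WT mice. It was at most 0.0357 FPKM in saline-treated Plod1-/- mice, of which 4 were listed at 0. Saline-treated WT mice reached 0.707 FPKM, the highest value of the 4 groups, with 4 mice listed at 0. The part of these cells in the result was not tested. Ang II-treated WT replicate 1, singled out after its values were seen, had the sums of 222 and 2352 with Cxcl1, Cxcl2 and Cxcl5 at 3.22, 0.908 and 0.712 FPKM. Its Cxcl1 and Cxcl5 were the highest of its group. Cxcl2 was highest in replicate 5, at 2.27 FPKM, which had the next highest neutrophil sum, 54.2 FPKM.

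Cxcl9, an interferon-gamma-induced CXCR3 ligand, differed from the neutrophil-drawing genes. Cxcl9 was 0.240, 0.110, 0.354, 0.0493 and 0.130 FPKM in saline-treated WT mice and 0.659, 0.941, 0.853, 0.474 and 3.19 FPKM in Ang II-treated WT mice. Cxcl9 in Plod1-/- mice was 0.593, 0.547, 7.82, 0.163 and 0.118 FPKM under saline and 0.306, 0.701, 0.625, 0.881 and 1.80 FPKM under Ang II. The highest value of all 20 mice was that of a saline-treated mouse, Plod1-/- replicate 3, and both Plod1-/- groups overlapped with each other and with Ang II-treated WT mice. Cxcl9 was below the filter in every comparison. Ang II-treated WT mice all lay above saline-treated WT mice, a difference of 0.81 in mean log2(FPKM + 1) (exact permutation p = 0.00794). Between the Ang II-treated genotypes the difference was -0.19 (exact permutation p = 0.587), and between Ang II- and saline-treated Plod1-/- mice it was -0.11 (exact permutation p = 0.960). The saline-treated genotypes differed by 0.74 (exact permutation p = 0.103), and by 0.19 (exact permutation p = 0.206) without Plod1-/- replicate 3.

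Cxcl10, a CXCR3 ligand induced by all types of interferon and by NF-kappaB, was low in WT mice. Cxcl10 was 0.274, 0.164, 0.229, 0.0826 and 0.0696 FPKM in saline-treated WT mice and 0.556, 0.158, 0.273, 0.279 and 0.503 FPKM in Ang II-treated WT mice. Cxcl10 in Plod1-/- mice was 0.670, 0.299, 5.78, 0.700 and 0.206 FPKM under saline and 0.820, 0.805, 5.44, 1.85 and 5.18 FPKM under Ang II. All Ang II-treated Plod1-/- mice lay above all WT mice, and they overlapped with saline-treated Plod1-/- mice through replicate 3 of that group. The difference between the Ang II-treated genotypes was 1.28 in mean log2(FPKM + 1) (exact permutation p = 0.00794), and 1.33 (exact permutation p = 0.0238) without Ang II-treated WT replicate 1. Against saline, Ang II-treated Plod1-/- mice differed by 0.73 (exact permutation p = 0.222). Without saline-treated Plod1-/- replicate 3 this became 1.17 (exact permutation p = 0.0397), and the groups no longer overlapped. Saline-treated Plod1-/- mice were 0.77 above saline-treated WT mice (exact permutation p = 0.0238), and 0.32 above them (exact permutation p = 0.0317) without the same library. In WT mice the change under Ang II was 0.21 (exact permutation p = 0.0714). Art3 on the opposite strand shares 5.91% of the exonic bases of Cxcl10, and the libraries were not strand-specific, so the Cxcl10 values are uncertain. Art3 was at 14.0 to 29.6 FPKM in Ang II-treated Plod1-/- mice and 21.2 to 45.8 FPKM in Ang II-treated WT mice, the opposite order to Cxcl10. Under saline Art3 was at 40.7 to 82.0 FPKM in Plod1-/- and 24.3 to 52.2 FPKM in WT mice, the same order as Cxcl10.

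The mice with high Cxcl10 differed in the interferon-stimulated genes that were high with it. In saline-treated Plod1-/- replicate 3, Cxcl9 and Cxcl10 were both high, with Igtp at 65.4 and Gbp4 at 10.2 FPKM. Isg15, a type I interferon-stimulated gene, was at 9.37 and Mx1 at 0.240 FPKM. Isg15 was still the highest of the group in this mouse, as were Ifit3, at 16.4 FPKM, and Oasl2, at 4.73 FPKM. Mx1, Ifit2 and Rsad2 were not. Replicate 3 of the Ang II-treated Plod1-/- mice had Isg15 at 85.2, Mx1 at 9.19 and Irf7 at 40.6 FPKM, with Cxcl10 at 5.44 FPKM, while Cxcl9 was 0.625 and Gbp4 0.975 FPKM. Igtp, at 21.2 FPKM, and Gbp3, at 8.76 FPKM, were nevertheless the highest of the group in this mouse. Replicate 5 of the same group had 27.9 FPKM of Isg15 and 4.39 FPKM of Mx1, with Cxcl10 at 5.18 and Cxcl9 at 1.80 FPKM. These genes were singled out after their values were seen. Of 20 interferon-stimulated genes, 14 could be tested between the Ang II-treated genotypes and 3 had higher expression (7.45% of all genes tested), Ifit1 (log2 fold change 1.61, SE 0.48, limma's adjusted p = 0.0264), Oasl2 (1.46, SE 0.49, limma's adjusted p = 0.0421) and Isg15 (1.76, SE 0.62, limma's adjusted p = 0.04996). Stat2, a subunit of the type I interferon signal, was among the 3 smallest p-values with a log2 fold change of 0.99 (SE 0.29, limma's adjusted p = 0.0270), under the fold threshold. The median over the 14 genes was 0.79, against 0.117 over all genes. Under Ang II against saline, 1 of 13 tested was higher in Plod1-/- mice (8.38% of all genes tested). The response differed between the genotypes for 0 of 15 (9.69% of all genes tested had a larger response in Plod1-/- mice).

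**Figure D2:**
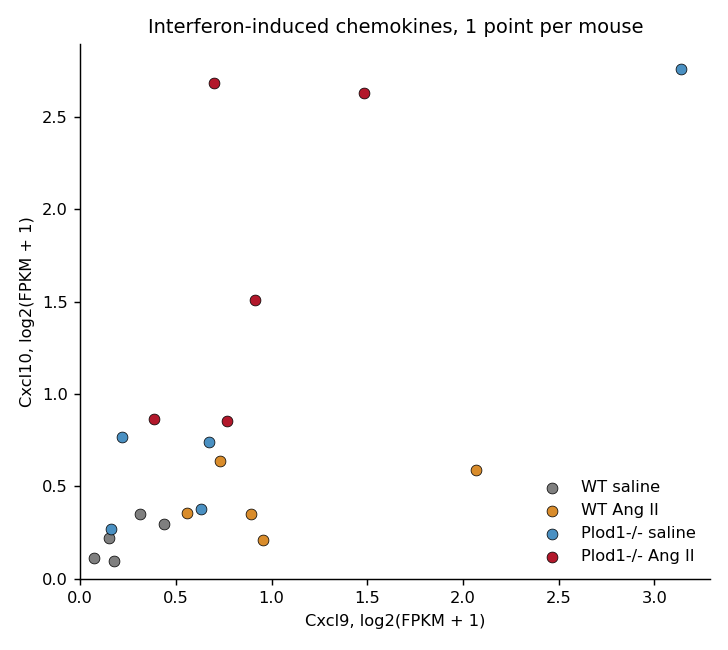
Cxcl9 (horizontal axis) against Cxcl10 (vertical axis), both on the log2(FPKM + 1) scale, with 1 point per mouse coloured by group. Saline-treated Plod1-/- replicate 3 is high on both axes (7.82 and 5.78 FPKM), whereas Ang II-treated Plod1-/- replicates 3 and 5 are high for Cxcl10 (5.44 and 5.18 FPKM) at 0.625 and 1.80 FPKM of Cxcl9.

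Cxcl12, the CXCR4 ligand made by stromal and vascular cells, was the most abundant member under saline. Cxcl12 was 18.8, 13.0, 16.2, 14.7 and 14.4 FPKM in saline-treated WT mice and 61.6, 19.2, 21.7, 23.9 and 21.0 FPKM in Ang II-treated WT mice. Cxcl12 in Plod1-/- mice was 15.8, 20.1, 12.2, 11.6 and 13.8 FPKM under saline and 49.2, 39.5, 49.2, 51.3 and 62.8 FPKM under Ang II. Both saline-treated groups lay together, and all Ang II-treated mice were above the saline-treated mice of their genotype. In Plod1-/- mice Ang II raised the mean from 14.7 ± 3.43 to 50.4 ± 8.30 FPKM (SD, n = 5 each), with a log2 fold change of 1.72 (SE 0.16, limma's adjusted p = 4.78e-05). The corresponding log2 fold change in WT mice was 0.75 (SE 0.27, limma's adjusted p = 0.0474), under the fold threshold. The Ang II-treated genotypes overlapped through WT replicate 1 and differed by 0.89 (SE 0.29, limma's adjusted p = 0.0372), under the threshold as well. Without that library the difference was 1.18 (limma's adjusted p = 0.000996), which passed it. Over 20 alternative fits the difference ran from 0.776 to 1.18 and was called in 3. The saline-treated genotypes differed by -0.08, with a 95% confidence interval of -0.40 to 0.24 (limma's adjusted p = 0.743).

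Cxcl13, the B cell-attracting CXCR5 ligand, varied widely within groups. Cxcl13 was 0.788, 0.964, 5.51, 1.13 and 1.67 FPKM in saline-treated WT mice and 225, 6.35, 3.14, 3.24 and 8.45 FPKM in Ang II-treated WT mice. Cxcl13 in Plod1-/- mice was 1.46, 2.96, 4.57, 1.34 and 12.7 FPKM under saline and 6.52, 23.4, 1.64, 9.87 and 19.8 FPKM under Ang II. All groups overlapped, and 1 mouse, Ang II-treated WT replicate 1, stood at 225 FPKM against at most 8.45 FPKM in the rest of its group. No comparison passed the thresholds in the main fit, in which no mouse was left out. Between the genotypes under Ang II, the log2 fold change was -0.27, with a 95% confidence interval of -2.56 to 2.03 (limma's adjusted p = 0.860), and it became 0.79 (limma's adjusted p = 0.335) without that library. In WT mice the log2 fold change under Ang II was 2.21 (SE 0.94, limma's adjusted p = 0.0814), and 1.16 (limma's adjusted p = 0.0403) without the same library, which passed them. It also passed without Ang II-treated replicate 4 (2.59, limma's adjusted p = 0.0467) and with all 4 groups in one fit (2.21, limma's adjusted p = 0.0486). In Plod1-/- mice it was 1.20 (SE 0.65, limma's adjusted p = 0.159), and 1.68 (limma's adjusted p = 0.0368) without Ang II-treated replicate 3, which passed. Summed over 6 B cell markers, the level was 1.05 to 5.25 FPKM in Ang II-treated WT and 1.33 to 13.7 FPKM in Ang II-treated Plod1-/- mice, and the highest WT sum was that of replicate 5, not replicate 1. The part of B cells in these values was not tested.

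Cxcl14, a chemokine of fibroblasts and epithelia that draws monocytes and dendritic cells, rose under Ang II in both genotypes. Cxcl14 was 0.398, 0.872, 1.42, 0.490 and 0.882 FPKM in saline-treated WT mice and 23.5, 4.59, 4.25, 1.17 and 9.26 FPKM in Ang II-treated WT mice. Cxcl14 in Plod1-/- mice was 0.828, 3.62, 1.13, 0.423 and 0.704 FPKM under saline and 19.3, 39.6, 28.0, 54.8 and 41.7 FPKM under Ang II. The Ang II-treated Plod1-/- mice were above all others except WT replicate 1, which was above the lowest of them. The log2 fold change under Ang II was 1.96 (SE 0.50, limma's adjusted p = 0.0134) in WT mice and 4.06 (SE 0.34, limma's adjusted p = 3.31e-05) in Plod1-/- mice. Between the Ang II-treated genotypes the means were 36.7 ± 13.6 and 8.55 ± 8.83 FPKM (SD, n = 5 each), with a log2 fold change of 2.36 (SE 0.55, limma's adjusted p = 0.0104). Under saline the gene was below the filter and the genotypes differed by 0.26 in mean log2(FPKM + 1) (exact permutation p = 0.548). Of 6 fibroblast markers tested between the Ang II-treated genotypes, none had higher and 1 had lower expression (920 and 453 of all 12356 genes tested). The summed FPKM of these markers was 390 to 826 in Plod1-/- and 489 to 718 in WT mice.

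Cxcl16, the membrane-anchored CXCR6 ligand, rose under Ang II in Plod1-/- mice. Cxcl16 was 5.05, 3.27, 2.98, 4.86 and 2.22 FPKM in saline-treated WT mice and 7.67, 2.98, 2.33, 3.48 and 4.53 FPKM in Ang II-treated WT mice. Cxcl16 in Plod1-/- mice was 2.06, 3.15, 4.24, 2.31 and 2.15 FPKM under saline and 5.46, 13.6, 24.6, 21.6 and 16.7 FPKM under Ang II. Replicates 2 to 5 of the last group were above all other mice, and replicate 1 was below Ang II-treated WT replicate 1. The log2 fold change was 2.09 (SE 0.34, limma's adjusted p = 0.000776) under Ang II in Plod1-/- mice and 1.68 (SE 0.37, limma's adjusted p = 0.00876) between the Ang II-treated genotypes. In WT mice the log2 fold change was 0.11, with a 95% confidence interval of -0.45 to 0.67 (limma's adjusted p = 0.743), and it was -0.09 without Ang II-treated replicate 1. The saline-treated genotypes differed by -0.30 (SE 0.20, limma's adjusted p = 0.364). Zmynd15 on the opposite strand shares 18.3% of the exonic bases of Cxcl16, so the Cxcl16 values are uncertain. Zmynd15 was at 1.20 to 4.49 FPKM in Ang II-treated Plod1-/- mice and 0.732 to 2.10 FPKM in Ang II-treated WT mice, the same order as Cxcl16. Under saline Zmynd15 was at 0.732 to 1.06 FPKM in Plod1-/- and 0.562 to 1.13 FPKM in WT mice.

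The whole family was then set side by side. Under Ang II against saline in Plod1-/- mice, 6 of the 7 members tested had higher expression (8.38% of all 12333 genes tested), the exception being Cxcl13, and the 6 were also those in which all Ang II-treated mice lay above all saline-treated mice (14.2% of all genes tested). Cxcl1, Cxcl2, Cxcl5 and Cxcl14 reached the filter here only through the Ang II-treated mice, so their part in both counts was fixed by that level. In WT mice, 1 of 5 members tested had higher expression, Cxcl14 (6.38% of all 11994 genes tested), and 1 had lower expression, Cxcl1 (2.28%). Between the saline-treated genotypes, 1 of 4 members tested was lower in Plod1-/- mice, Cxcl1 (0.408% of all 11999 genes tested). In WT mice Cxcl14 reached the filter only through Ang II-treated mice. Cxcl1 reached it in both comparisons only through saline-treated WT mice, so the part of both genes in these counts was fixed by that level. Comparisons that share a group share its mice, and their values are set side by side only.

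Whether the response to Ang II differed between the genotypes was tested as an interaction on all 20 mice. The response was larger in Plod1-/- mice in 5 of the 7 members tested (9.69% of all 13263 genes tested), of which Cxcl2 and Cxcl5 reached the filter only through Ang II-treated Plod1-/- mice. The difference in log2 fold change was 5.71 for Cxcl2 (SE 0.73, limma's adjusted p = 3.79e-05) and 4.13 for Cxcl1 (SE 0.46, limma's adjusted p = 1.60e-05). Cxcl5 had a difference of 2.97 (SE 0.30, limma's adjusted p = 9.58e-06). Among the other classes it was 2.10 for Cxcl14 (SE 0.66, limma's adjusted p = 0.0177) and 1.98 for Cxcl16 (SE 0.45, limma's adjusted p = 0.00262). Cxcl12 had 0.97 (SE 0.34, limma's adjusted p = 0.0294), just under the fold threshold of 1, and 1.27 without Ang II-treated WT replicate 1. Over 29 alternative fits it ran from 0.855 to 1.27 and was called in 8. Cxcl13 had -1.01 (SE 1.24, limma's adjusted p = 0.538). With quantile normalization the numbers of all genes with a larger and a smaller response changed from 1285 and 844 to 981 and 1146, and the 5 members were still called.

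**Figure D3:**
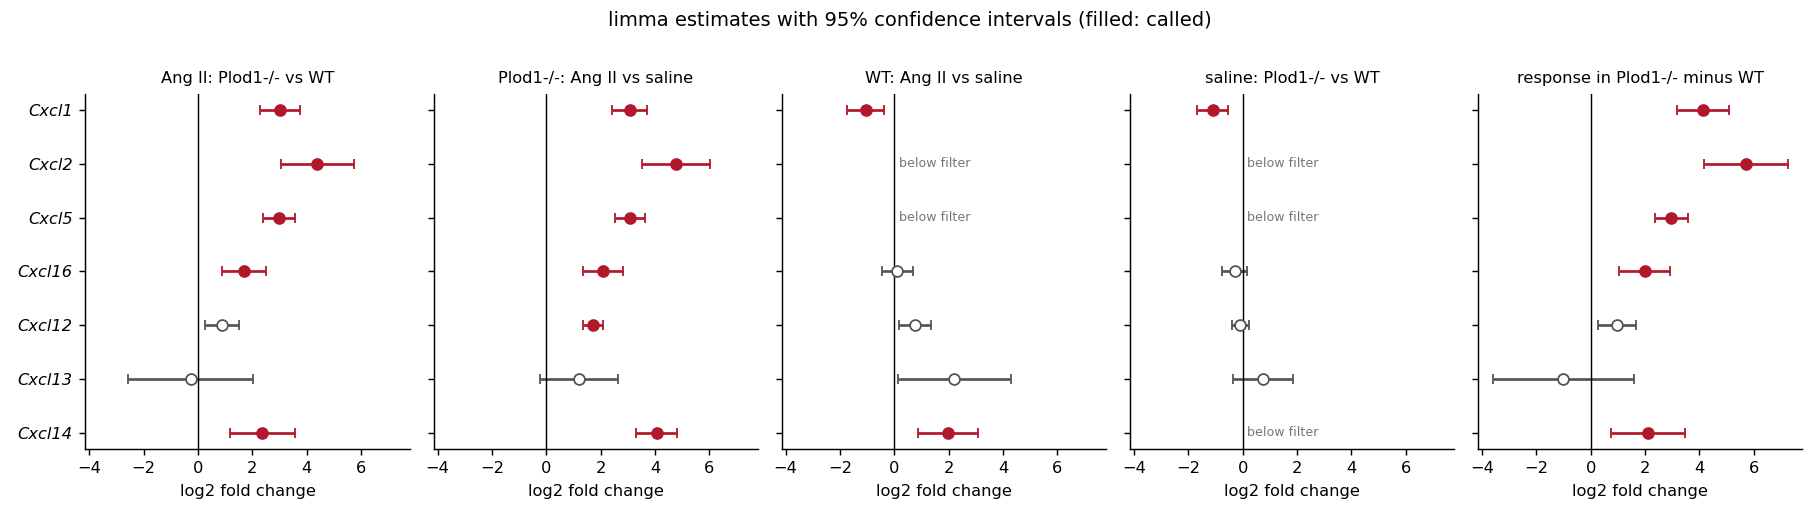
limma estimates of the log2 fold change (horizontal axis) with 95% confidence intervals for the 7 members that reached the filter, in 4 comparisons and for the difference in response between genotypes, with filled points for members called. Cxcl1, Cxcl2 and Cxcl5 have the largest estimates between the Ang II-treated genotypes (3.02, 4.39 and 2.97), and the interval of Cxcl13 spans 0 there.

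Other ligands of the family followed the neutrophil-drawing members. Of 6 further CXC ligand genes, 3 could be tested between the Ang II-treated genotypes, and all 3 had higher expression in Plod1-/- mice (7.45% of all genes tested). Cxcl3, a CXCR2 ligand, was 1.85, 1.17, 4.85, 6.79 and 1.19 FPKM in Ang II-treated Plod1-/- mice and at most 0.266 FPKM in the other 15 mice, with a log2 fold change of 1.75 (SE 0.34, limma's adjusted p = 0.00538). Pf4, platelet factor of megakaryocytes that resident macrophages also make, was 115, 629, 829, 789 and 243 FPKM in Ang II-treated Plod1-/- mice and 71.0, 22.7, 16.8, 22.6 and 21.0 FPKM in Ang II-treated WT mice, with a log2 fold change of 3.90 (SE 0.57, limma's adjusted p = 0.00184). Ppbp, the platelet precursor of a CXCR2 ligand, was 27.1, 30.6, 103, 127 and 14.2 FPKM against 13.1, 0.721, 3.76, 1.90 and 2.69 FPKM, with a log2 fold change of 3.43 (SE 0.67, limma's adjusted p = 0.00542). In each of these genes the Ang II-treated Plod1-/- mice lay above all Ang II-treated WT mice. Cxcl3, Pf4 and Ppbp lie with Cxcl1, Cxcl2 and Cxcl5 in the cluster that runs from Cxcl5 to Cxcl2. Cxcl3, like these 3 members, reached the filter only through Ang II-treated Plod1-/- mice, so that a count over the cluster is set by the filter. Under saline, Pf4 had lower expression in Plod1-/- than in WT mice (log2 fold change -1.66, SE 0.39, limma's adjusted p = 0.0353). Cxcl11 stayed at or below 0.0811, Cxcl15 at or below 0.0667 and Cxcl17 at or below 0.398 FPKM in all mice.

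The receptors mark the cells that can answer these ligands. Of 8 CXC receptor genes, 4 could be tested between the Ang II-treated genotypes and 2 had higher expression in Plod1-/- mice (7.45% of all genes tested), of which Cxcr2 reached the filter only through that group. Cxcr2, the neutrophil receptor of Cxcl1, Cxcl2 and Cxcl5 and itself on the neutrophil marker list, was 1.48, 6.80, 14.9, 15.6 and 7.99 FPKM in Ang II-treated Plod1-/- mice and 1.32, 0.186, 0.164, 0.114 and 0.412 FPKM in Ang II-treated WT mice, with a log2 fold change of 2.63 (SE 0.46, limma's adjusted p = 0.00378). Cxcr4, the receptor of Cxcl12, was 4.81, 39.6, 58.3, 58.9 and 20.9 FPKM against 6.60, 3.73, 3.53, 2.99 and 4.70 FPKM, overlapping through Plod1-/- replicate 1 and WT replicate 1. Its log2 fold change reached 2.46 with an SE of 0.56 (limma's adjusted p = 0.00996). Ang II raised Cxcr4 in WT mice as well (log2 fold change 1.23, SE 0.19, limma's adjusted p = 0.00204). Ackr3, which scavenges Cxcl12, differed by 0.07 between the Ang II-treated genotypes (SE 0.20, limma's adjusted p = 0.798), and Ackr1, the scavenger of venular endothelium, by 0.54 (SE 0.45, limma's adjusted p = 0.374). Cxcr3, the receptor of Cxcl9 and Cxcl10, was below the filter at 0.178, 1.997, 1.68, 1.76 and 1.43 FPKM in Ang II-treated Plod1-/- mice and at most 0.748 FPKM in Ang II-treated WT mice. Cxcr5, the receptor of Cxcl13, stayed at or below 0.237, Cxcr6 at or below 0.440 and Cxcr1 at or below 0.404 FPKM in all mice. The genes of Ackr1, Cxcr5, Cxcr6, Cxcl11 and Cxcl17 overlap other genes, so their values are uncertain.

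**Figure D4:**
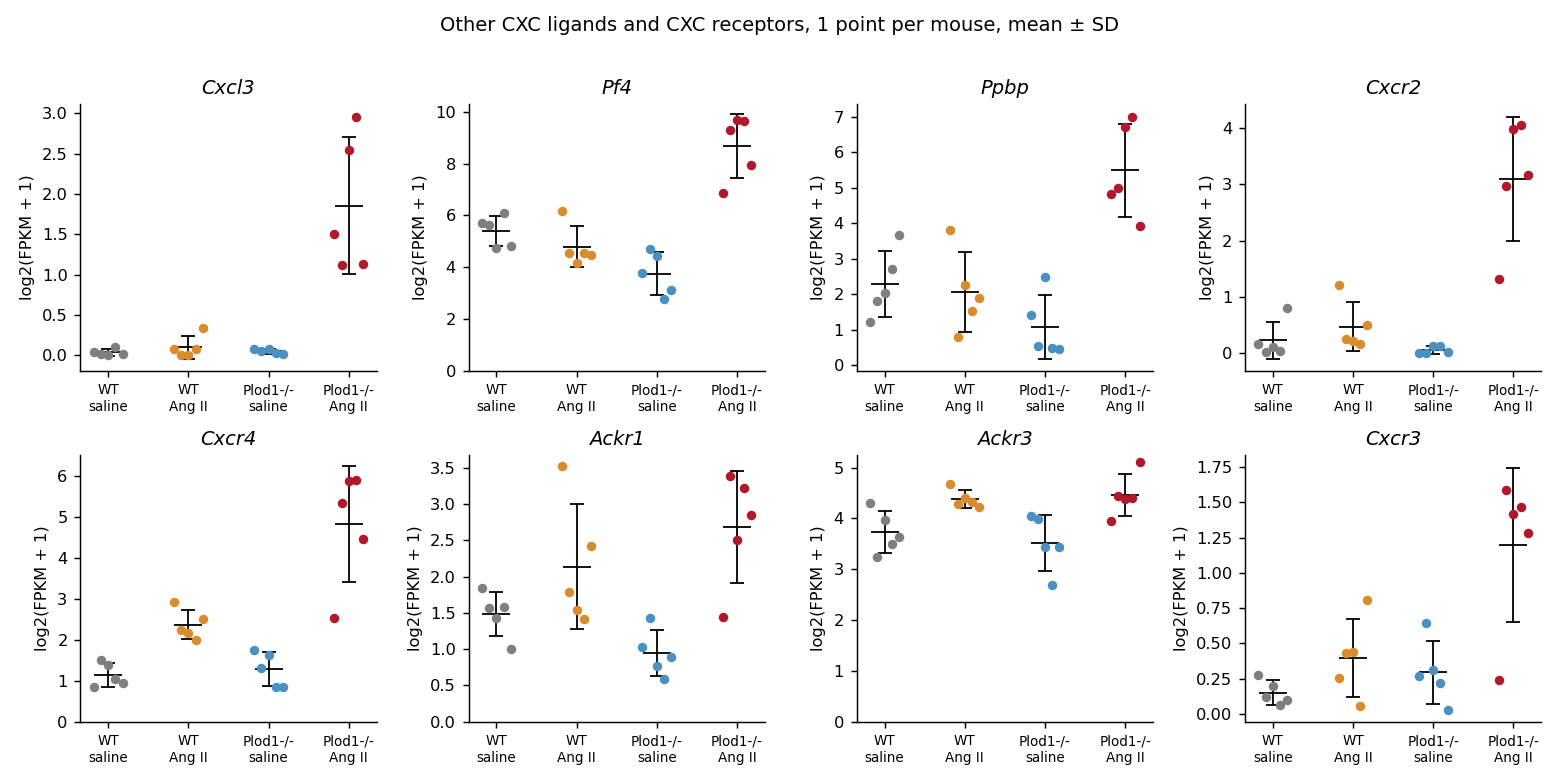
Expression of 3 other CXC ligands, 3 CXC receptors and the scavenger receptors Ackr1 and Ackr3 on the log2(FPKM + 1) scale (vertical axis) in the 4 groups, with 1 point per mouse and bars for the mean and SD of 5 mice. Cxcl3, Pf4, Ppbp and Cxcr2 are higher in all Ang II-treated Plod1-/- mice than in all Ang II-treated WT mice, whereas the 2 scavenger receptors overlap.

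A list of 15 feedback or target genes of NF-kappaB and IL-17 signaling held genes that switch on beside Cxcl1 and Cxcl2 in many cells. Of these, 14 could be tested between the Ang II-treated genotypes. Higher expression was found for 3 of them and lower for none (7.45% of all genes tested were higher), and the median log2 fold change was 0.77, against 0.117 over all genes. Zfp36, an RNA-binding protein that shortens the life of chemokine mRNAs, was higher in Plod1-/- mice by a log2 fold change of 2.11 (SE 0.28, limma's adjusted p = 0.00134). Its mean was 179 ± 74.0 FPKM in saline-treated and 38.1 ± 11.9 FPKM in Ang II-treated WT mice (SD, n = 5 each), which was called lower (log2 fold change -2.14, SE 0.32, limma's adjusted p = 0.00187), and 75.2 ± 39.8 and 170 ± 61.5 FPKM in the respective Plod1-/- groups (SD, n = 5 each). Nfkbiz, a nuclear regulator of NF-kappaB that IL-17 induces, had 1.58 (SE 0.24, limma's adjusted p = 0.00198). Bcl3 had 1.27 (SE 0.41, limma's adjusted p = 0.0372), and Nfkb2, among the 3 smallest p-values, 0.82 (SE 0.22, limma's adjusted p = 0.0168), under the fold threshold.

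For each member, the genes whose log2(FPKM + 1) was most like it over the 20 mice were found among 13262 genes for members that reached the filter over all mice and 13263 for Cxcl9 and Cxcl10. The 20 points share 4 groups, so Pearson's r is a description. Cxcl1 was closest to Socs3, an inhibitor of cytokine signaling (r = 0.956), and Cxcl2 to the chemokine Ccl3 (r = 0.981) and the cytokine gene Osm (r = 0.973). Cxcl5 was closest to Gm19951 (r = 0.991) and Steap1 (r = 0.987). The interferon-induced members had other partners, Ubd (r = 0.877), Tgtp2 (r = 0.845) and Cd74 (r = 0.831) for Cxcl9 and Gm12250 (r = 0.948), Socs1 (r = 0.922) and Ifi47 (r = 0.914) for Cxcl10. Cxcl12 was closest to Wfdc21 (r = 0.932) and Wfdc17 (r = 0.931), and then to Cxcl14 (r = 0.926). Cxcl14 itself was closest to Wfdc17 (r = 0.964). Cxcl16 was close to Prcp and to Fcer1g, a gene of myeloid cells (r = 0.977 each), and Cxcl13 was closest to Arntl2 (r = 0.872).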

How the data were processed

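RNA from 20 abdominal aortas, 5 mice in each of 4 groups taken from the labels, was sequenced from libraries made without strand information. The authors deposited FPKM per Ensembl gene for each mouse. The methods name HISAT2, stringtie, cuffquant and cuffnorm, with normalization of expression values. The submitters' processing notes name mm10, HISAT2 2.1.0, Bowtie2 2.2.3 and HTSeq 0.6.0, whereas the methods give another HISAT2 release. The sources differ on the tools, so whether cuffnorm had normalized the deposited values between libraries is unknown. Symbols came from GENCODE release 21, which held 43226 of the 43422 genes. Read counts were not used, the depth is unknown and no counting interval is given.

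FPKM were transformed to log2(FPKM + 1) and fitted with limma 3.58.1 (R 4.3.3, eBayes with a variance trend) on the 10 mice of each comparison, over genes that reached 1 FPKM in 5 or more of these mice. Benjamini-Hochberg adjusted p-values below 0.05 and a log2 fold change beyond 1 in either direction together made a call. The interaction used all 20 mice. Members below the filter were compared by two-sided exact permutation over 252 splits. The method was tested on simulated data. The members and lists were chosen with earlier results of these data known. The named genes are all 9 members, all listed ligands and receptors, the called genes and the 3 smallest p-values of the NF-kappaB and interferon lists, defining markers, and, of the 3 genes most like each member, those given in the text. Between the Ang II-treated genotypes, markers of endothelium (6 tested), adipocytes (8), lymph node stroma (4) and B cells (2) gave 0 genes with higher expression. Lower expression was found for 2 of 8 adipocyte and 2 of 6 smooth muscle markers. Of all 12356 genes tested, 920 had higher and 453 had lower expression. None of the 8 T and NK cell markers reached the filter, and their summed FPKM was 1.55 to 3.31 in WT and 2.64 to 8.89 in Plod1-/- mice. Replicate numbers come from the labels and gave no pairing. The alternatives are a pseudocount of 0.1, no filter, a replicate block, quantile normalization, no variance trend, weights per mouse, mitochondrial genes left out, both libraries with Xist RNA left out, all 4 groups in one fit and each mouse left out. Leaving out Ang II-treated WT replicate 1 and saline-treated Plod1-/- replicate 3 together was added after seeing the data.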

Additional observations from a re-analysis of the deposited data

Results flagged for a closer look

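Of 36 groups of 5 mice (9 members in 4 groups), 6 held a value far from the rest by Dixon's test on log2(FPKM + 1), where chance gives about 1 in 20. Ang II-treated WT replicate 1 stood apart for Cxcl5 (0.712 FPKM), Cxcl12 (61.6 FPKM) and Cxcl13 (225 FPKM). Saline-treated Plod1-/- replicate 3 stood apart for Cxcl9 (7.82 FPKM) and Cxcl10 (5.78 FPKM). Ang II-treated WT replicate 5 stood apart for Cxcl9 (3.19 FPKM). The causes of these values were not tested.

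The response to Ang II differed between the genotypes by an interaction test for 5 of the 7 members tested. A larger response in Plod1-/- mice was found for 9.69% of all 13263 genes tested. Cxcl2 and Cxcl5 reached the filter only through Ang II-treated Plod1-/- mice, so their part in this count was fixed by that level. The difference in log2 fold change, Plod1-/- minus WT, was 4.13 for Cxcl1, 5.71 for Cxcl2, 2.97 for Cxcl5, 2.10 for Cxcl14 and 1.98 for Cxcl16.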

How the results depend on the processing

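Over all members and comparisons, 592 of 634 values under an alternative kept their direction and their side of the thresholds, 16 passed them newly, 17 no longer passed and 9 changed sign. For the Ang II-treated genotypes, Ang II in Plod1-/- mice and the interaction, the number of members called stayed within 1.5 times. Leaving out an Ang II-treated Plod1-/- mouse took Cxcl5, and against saline also Cxcl2, below the filter by construction. In WT mice the 2 calls became 1 with no filter, and 1 to 3 when a mouse was left out. Between the saline-treated genotypes the 1 call became 0 with no filter, with all 4 groups in one fit and with the 2 libraries that stand apart left out, and 0 to 1 when a mouse was left out. The replicate numbers did not pair the mice, since deviations of same-numbered mice had r from -0.332 to 0.421 and 3 of 20 mice correlated best with their own number. With the replicate number as a block that 1 call also became 0, and no other number of members called changed by over 1.5 times. Cxcl13 changed sign between the Ang II-treated genotypes with weights per mouse (0.27), without WT replicate 1 (0.79, as with both libraries that stand apart left out) and without Plod1-/- replicate 3 (0.22), and in the interaction without WT replicate 1 (0.038) or both libraries (0.12). Cxcl16 in WT mice changed sign without Ang II-treated replicate 1 (-0.094, alone or with both libraries left out) and without saline-treated replicate 5 (-0.014). With each mouse left out in turn, Cxcl13 ran from -0.66 to 0.79 and, in the interaction, from -1.40 to 0.038, and Cxcl16 from -0.094 to 0.25. The cause was not tested. Quantile normalization changed the numbers of genes higher and lower under Ang II in Plod1-/- mice from 1034 and 680 to 887 and 880. The depth is unknown, so a value near 0 FPKM is not shown to be absence.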
